A study of Mus musculus with 12 samples.

Results

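Interferon-stimulated genes were followed in whole kidney tissue of mice with chronic kidney disease (CKD), with and without iron treatment. The set was a list of 41 gene symbols, of which 40 were found in the deposited expression table of 22053 rows. A member was kept for testing when it reached at least 1 FPKM (fragments per length of transcript and per number of mapped reads) in at least 4 of the 12 mice. This left 39 members among 13148 genes tested. Mx2 was not analysed here, and Oas3 reached 1 FPKM in only 3 mice, all of them CKD mice. No member depended on the mice of 1 group alone to be kept. The mice were wild-type C57BL/6 animals in 3 groups of 4, and each gave 1 library. CKD mice ate a diet with 0.2% adenine for 8 weeks, from 8 to 16 weeks of age, which injures the tubules and leads to fibrosis. Control mice ate the same diet without adenine. Control mice and untreated CKD mice received weekly intraperitoneal PBS. Iron-treated CKD mice (CKD+Fe) ate the adenine diet and received weekly intraperitoneal iron dextran at 0.5 g/kg. The values below are listed in a fixed order of mice, which is 012811, 012822, 042301 and 042310 for control, 021320, 022301, 110310 and 120102 for CKD, and 042702, 062910, 111710 and 122320 for CKD+Fe.

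Cells that sense viral or misplaced cellular nucleic acids secrete type I interferons, and activated T and natural killer cells secrete interferon gamma. Type I interferons act through the receptor chains Ifnar1 and Ifnar2 and the kinases Jak1 and Tyk2, which lead to a complex containing Stat2 and Irf9 that binds the interferon-stimulated response element of target promoters. Interferon gamma acts through Ifngr1 and Ifngr2, and its signal reaches promoters that hold the gamma-activated site. The targets sense foreign RNA, block its translation, modify proteins with the ubiquitin-like molecule Isg15, or attack pathogens within vacuoles, and both resident tubule cells and infiltrating leukocytes can express them.

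The promoters of the members were read first, because they show which letters of the response elements lie at these genes. Of the 39 members tested, 29 had a promoter in the RefSeq table used here (GRCm38.p6, 250 bases before to 50 bases after a transcription start). The core letters of the interferon-stimulated response element, GAAANNGAAA on either strand, were found for 15 of these 29 genes (51.7%), against 3.99% of 27025 genes with a promoter and 3.86% of 10451 tested genes with one. The letters of the gamma-activated site, TTCNNNGAA, were found for 8 of the 29 (27.6%), against 9.55% of all genes and 8.39% of tested genes, and 1 of the 8 matches overlapped the other motif. A match is a description of letters and not of binding, and its absence says only that these letters are not in this window. The stretches below run 5′ to 3′ up to the base before the start site, with the response element letters or their reverse complement in capitals. Only promoters that carried the letters are shown. Among these, Isg15, Ifit1 and Ifit3 were picked because their level was among the lowest in CKD+Fe relative to CKD mice. Bst2 was picked for its repeated match, and Gbp2 and Gbp3 because every CKD+Fe mouse lay below every CKD mouse. Irgm1, Igtp and Rsad2 carried the letters and yet had log2 fold changes below the all-gene median in CKD against control mice. Irf7 and Dtx3l had similarly low or separated CKD+Fe values, but their promoters held no match and are not shown. Parp14, also separated, had no promoter in the RefSeq table.
Isg15 (chr4:156200819-156200916, minus strand): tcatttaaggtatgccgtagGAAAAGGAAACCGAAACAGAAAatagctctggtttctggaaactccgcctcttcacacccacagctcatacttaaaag
Ifit1 (chr19:34640765-34640888, plus strand): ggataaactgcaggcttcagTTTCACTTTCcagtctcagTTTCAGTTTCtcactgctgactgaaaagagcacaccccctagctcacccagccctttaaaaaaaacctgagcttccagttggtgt
Ifit3 (chr19:34583353-34583528, plus strand): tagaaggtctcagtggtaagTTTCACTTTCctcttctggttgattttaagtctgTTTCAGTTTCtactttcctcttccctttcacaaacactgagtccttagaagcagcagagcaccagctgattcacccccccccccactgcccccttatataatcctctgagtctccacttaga
Bst2 (chr8:71537473-71537622, minus strand): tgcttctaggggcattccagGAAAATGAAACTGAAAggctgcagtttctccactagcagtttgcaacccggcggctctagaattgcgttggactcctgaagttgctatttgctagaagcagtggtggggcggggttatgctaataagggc
Gbp2 (chr3:142620584-142620662, plus strand): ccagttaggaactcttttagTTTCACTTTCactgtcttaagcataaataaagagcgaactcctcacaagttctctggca
Gbp3 (chr3:142559979-142560043, plus strand): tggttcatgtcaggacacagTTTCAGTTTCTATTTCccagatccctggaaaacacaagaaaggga
Irgm1 (chr11:48871421-48871470, minus strand): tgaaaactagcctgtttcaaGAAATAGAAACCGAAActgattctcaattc
Igtp (chr11:58199502-58199555, plus strand): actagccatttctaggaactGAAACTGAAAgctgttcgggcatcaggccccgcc
Rsad2 (chr12:26456453-26456592, minus strand): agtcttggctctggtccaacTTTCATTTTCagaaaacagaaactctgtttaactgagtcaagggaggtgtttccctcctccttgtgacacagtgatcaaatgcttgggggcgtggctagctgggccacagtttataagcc

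Members with and without these letters had similar medians. In CKD against control mice the 15 members with the response element letters had a median of 1.28 on the log2 scale and 13 of them rose, and the 14 without the letters had a median of 1.26 and 12 of them rose, against 54.6% of all 13148 genes tested. Between CKD+Fe and CKD mice the medians were -0.32 and -0.28. The range among the 15 members with the letters ran from -0.20 for Igtp to 1.93 for Ddx58 in CKD against control mice.

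The deposited FPKM summed to between 503438 and 707843 per mouse, lowest in the CKD group. Most genes were higher in CKD mice on this scale, and the all-gene median of the log2 fold change was 0.50 between CKD and control mice and -0.0005 between CKD+Fe and CKD mice, so that changes are read against these medians. Markers of the proximal tubule were present in every mouse (summed FPKM of 6 markers from 1907 to 3045 in control mice) and were lower in CKD mice (478 to 848). One mouse of each group stood apart, with 305 genes at least 2-fold from every other control mouse in 042301, 340 genes in CKD mouse 110310 and 152 in CKD+Fe mouse 042702, against 4 to 78 genes in the other mice. In bulk tissue, fewer cells of a type and less RNA per cell cannot be told apart.

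The first comparison asked how the members differ between adenine-fed and control kidneys. In CKD mice 35 of the 39 members rose past the threshold (adjusted p under 0.05, limma with Benjamini-Hochberg adjustment over all genes tested) and 0 fell, against 54.6% of all genes tested that rose and 13.3% that fell. The median log2 fold change of FPKM + 1 over the members was 1.32, and 34 of 39 lay above the all-gene median of 0.50. Among the roles with more than 1 tested gene, nucleic acid sensors, RNA-binding antiviral proteins and the ADP-ribosylation group had the highest medians, at 1.50, 1.53 and 1.51. The 4 members that did not pass were Igtp, Rsad2, Samd9l and Ifi44. Every CKD mouse lay above every control mouse for 22 members of 39, against 44.6% of all genes.

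**Figure D1:**
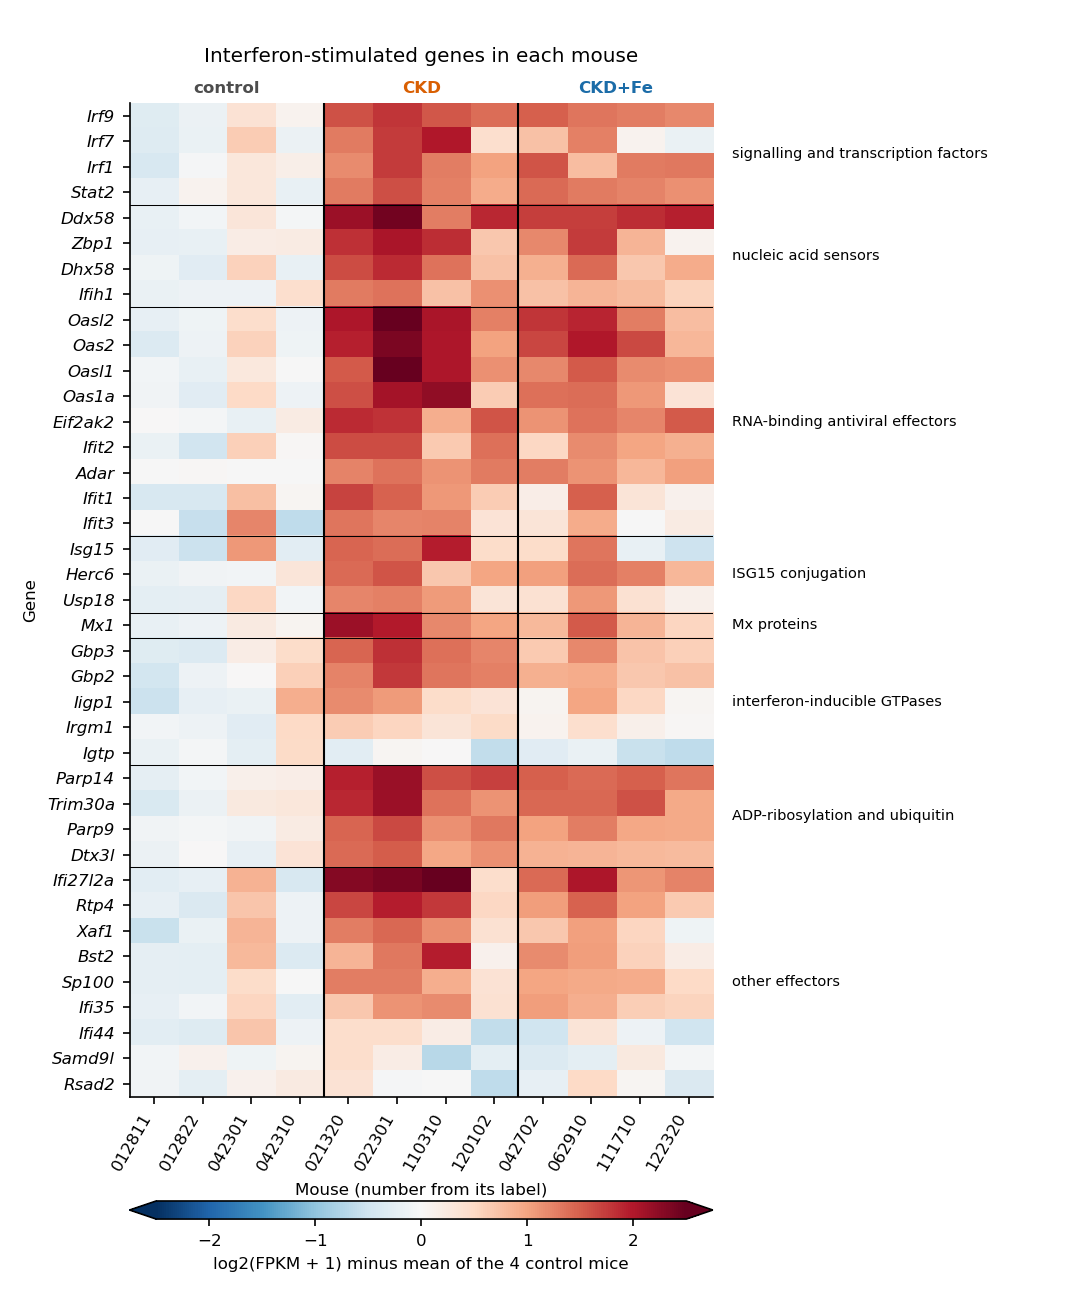
Heat map of 39 interferon-stimulated genes (vertical axis, grouped by role) in 12 mice (horizontal axis, by group), coloured by log2(FPKM + 1) minus the mean of the 4 control mice. CKD mice 021320, 022301 and 110310 are red across most rows, CKD mouse 120102 and CKD+Fe mouse 122320 are paler than the rest of their groups, and Igtp, Rsad2, Samd9l and Ifi44 stay near white in all 3 groups.

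The rise was partly shared with the transcriptome. After median-of-ratios rescaling, which sets the typical gene to equal level in every mouse, 24 members rose against 28.8% of all genes, 3 fell against 29.3%, and their median log2 fold change was 0.81. The 3 that fell on that scale were Igtp (-0.74, adjusted p = 0.006), Rsad2 (-0.61, adjusted p = 0.037) and Samd9l (-0.64, adjusted p = 0.0154). The members that rose on the deposited scale and did not pass after rescaling were Irf7, Ifit1, Ifit3, Isg15, Usp18, Irgm1, Iigp1, Bst2, Ifi35, Xaf1 and Sp100. With quantile normalization 20 members rose and 2 fell, against 23.3% and 25.6% of all genes.

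The 4 signalling factors all rose. Irf9, the DNA-binding subunit of the complex, was at 5.86, 6.62, 9.76 and 7.98 FPKM in control mice, 24.5, 28.2, 23.7 and 21.1 in CKD mice and 22.8, 20.4, 19.5 and 18.5 in CKD+Fe mice. The CKD mice all exceeded the control mice, and the log2 fold change was 1.58 (SE 0.15, adjusted p = 1.82e-06). Stat2, another subunit, was at 2.87, 3.75, 4.46 and 2.93 FPKM in control mice, 9.95, 12.7, 9.66 and 7.52 in CKD mice and 10.9, 10.03, 9.48 and 8.81 in CKD+Fe mice. The CKD and control values did not overlap, with a log2 fold change of 1.28 (SE 0.16, adjusted p = 1.96e-05). Irf1, a factor induced by interferon gamma and by inflammatory cytokines, was at 8.06, 10.8, 13.5 and 12.2 FPKM in control mice, 26.1, 39.1, 28.1 and 23.02 in CKD mice and 34.3, 19.5, 28.3 and 28.7 in CKD+Fe mice. Treated and untreated CKD mice covered overlapping ranges, and Irf1 had a log2 fold change of 1.31 (SE 0.20, adjusted p = 9.07e-05) between CKD and control mice. Irf7, which drives transcription of the type I interferon genes themselves, was at 9.05, 10.2, 18.4 and 10.3 FPKM in control mice, 29.6, 41.02, 48.8 and 15.7 in CKD mice and 19.9, 28.8, 12.2 and 10.2 in CKD+Fe mice. Control mouse 042301 was above the other 3 control mice and also above CKD mouse 120102, so the groups overlapped, and the log2 fold change of Irf7 was 1.36 (SE 0.36, adjusted p = 0.0041).

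All 4 nucleic acid sensors rose, and for each of them every CKD mouse lay above every control mouse. Ddx58, which encodes the RNA sensor RIG-I, was at 5.05, 5.56, 7.44 and 5.64 FPKM in control mice, 29.2, 35.6, 15.7 and 24.4 in CKD mice and 21.7, 21.9, 23.8 and 25.5 in CKD+Fe mice. Its lowest CKD mouse was 110310, still above all control mice, and its log2 fold change of 1.93 (SE 0.20, adjusted p = 3.84e-06) was among the 4 highest of the members. Zbp1, a sensor of Z-form nucleic acids that can trigger necroptosis, was at 1.78, 1.81, 2.60 and 2.66 FPKM in control mice, 10.4, 12.1, 10.5 and 4.11 in CKD mice and 6.31, 9.66, 4.76 and 2.41 in CKD+Fe mice. CKD mouse 120102 was the lowest of its group at 4.11 FPKM, and the log2 fold change was 1.60 (SE 0.33, adjusted p = 8.49e-04). Ifih1, the sensor of long double-stranded RNA, and Dhx58, a regulator of both RNA sensors, had log2 fold changes of 1.13 and 1.40.

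RNA-binding antiviral effectors rose in 9 of 9 tested members, and the oligoadenylate synthetase family led them. Oasl2, an oligoadenylate synthetase-like protein, was at 4.92, 5.29, 8.25 and 5.26 FPKM in control mice, 26.5, 39.1, 26.9 and 15.3 in CKD mice and 22.5, 24.4, 15.5 and 10.7 in CKD+Fe mice. CKD mice lay above all control mice, and its log2 fold change of 1.97 (SE 0.28, adjusted p = 4.75e-05) was the highest of the 39 members. Oas2, which makes the oligoadenylates that switch on RNase L, was at 0.484, 0.736, 1.80 and 0.759 FPKM in control mice, 6.23, 8.65, 6.70 and 2.80 in CKD mice and 4.97, 6.61, 4.91 and 2.35 in CKD+Fe mice. Of the control mice, 3 were below 1 FPKM and none reached the lowest CKD mouse, and the log2 fold change was 1.83 (SE 0.30, adjusted p = 1.55e-04). Oas1a and Oasl1 had log2 fold changes of 1.64 and 1.81. Oas3, which was too low for testing, was at 0.154, 0.112, 0.286 and 0.258 FPKM in control mice, 1.08, 1.84, 1.33 and 0.452 in CKD mice and 0.446, 0.779, 0.422 and 0.173 in CKD+Fe mice, with every CKD mouse above every control mouse. The Oas genes and Oasl genes lie in separate clusters on chromosome 5, and reads shared between such relatives could be split by the estimate, so their separate levels are uncertain.

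Ifit1, which binds RNA that lacks host cap marks, was at 1.91, 1.92, 5.41 and 2.94 FPKM in control mice, 11.3, 9.69, 7.16 and 4.98 in CKD mice and 3.31, 9.71, 3.78 and 3.11 in CKD+Fe mice. Its control and CKD values overlapped at control mouse 042301, and the log2 fold change was 1.23 (SE 0.34, adjusted p = 0.00545). Ifit3, its binding partner, was at 14.1, 9.14, 34.2 and 8.76 FPKM in control mice, 37.4, 34.5, 34.5 and 18.3 in CKD mice and 18.00, 27.7, 13.97 and 16.4 in CKD+Fe mice. Control mouse 042301 came close to the level of 3 CKD mice and exceeded the fourth, and the log2 fold change of 1.04 (SE 0.36, adjusted p = 0.0212) lost its call in 4 of 8 fits that each left out 1 mouse (021320, 022301, 012822 or 042310, adjusted p from 0.0529 to 0.07003). Ifit2, from the same cluster on chromosome 19, had a log2 fold change of 1.32 with no overlap of control and CKD mice. Ifit3 has a near-identical neighbour, Ifit3b, so its level is uncertain as well.

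Eif2ak2, the kinase PKR that halts translation on double-stranded RNA, was at 2.48, 2.31, 2.03 and 2.98 FPKM in control mice, 11.5, 10.9, 5.45 and 9.20 in CKD mice and 6.53, 7.75, 7.03 and 8.94 in CKD+Fe mice. Control and CKD values did not overlap, and the log2 fold change was 1.53 (SE 0.20, adjusted p = 1.79e-05). Adar, which edits adenosine to inosine in double-stranded RNA, was at 5.91, 6.15, 5.96 and 5.94 FPKM in control mice, 15.5, 17.01, 14.3 and 16.2 in CKD mice and 15.9, 14.2, 11.4 and 13.3 in CKD+Fe mice. It had the narrowest spread of the members in the control and CKD groups, where the highest mouse was 1.04 and 1.19 times the lowest, and its log2 fold change was 1.26 (SE 0.12, adjusted p = 1.95e-06).

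The 3 genes of Isg15 conjugation rose. Isg15, a ubiquitin-like modifier on chromosome 4 (chr4:156199424-156200818), was at 7.94, 6.43, 21.8 and 7.99 FPKM in control mice, 28.7, 27.4, 41.1 and 13.9 in CKD mice and 13.9, 26.4, 8.46 and 6.51 in CKD+Fe mice. Control mouse 042301 was well above the other 3 control mice and above CKD mouse 120102, and the log2 fold change was 1.32 (SE 0.43, adjusted p = 0.0151). Usp18, which removes Isg15 from proteins and dampens the type I interferon receptor, was at 2.36, 2.41, 4.68 and 2.77 FPKM in control mice, 8.20, 8.54, 7.28 and 3.95 in CKD mice and 4.13, 7.36, 4.19 and 3.35 in CKD+Fe mice. The same pair of mice overlapped, and the log2 fold change was 0.97 (SE 0.25, adjusted p = 0.00415). Herc6, the main ligase for Isg15 in mice, had a log2 fold change of 1.16 with no overlap of control and CKD mice. Mx1, a gene of the dynamin-like GTPase family, was below 1 FPKM in all control mice and between 1.72 and 5.10 FPKM in CKD mice. Its log2 fold change was 1.58 (SE 0.27, adjusted p = 1.73e-04).

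Interferon-inducible GTPases, which act on the membranes of pathogen vacuoles, divided within the group. The guanylate-binding protein Gbp2 was at 4.63, 6.06, 6.78 and 10.7 FPKM in control mice, 17.2, 25.5, 18.7 and 17.5 in CKD mice and 13.4, 13.7, 11.4 and 11.9 in CKD+Fe mice. The control and CKD groups were apart, with a log2 fold change of 1.40 (SE 0.20, adjusted p = 4.37e-05), and its relative Gbp3 changed by 1.47 (SE 0.21, adjusted p = 3.93e-05). Igtp, an immunity-related GTPase also called Irgm3, was at 11.5, 12.7, 10.9 and 18.6 FPKM in control mice, 10.8, 13.6, 13.2 and 8.25 in CKD mice and 10.6, 11.7, 8.62 and 8.07 in CKD+Fe mice. All 3 groups overlapped, and the log2 fold change was -0.20 (SE 0.19, adjusted p = 0.368). Most of Igtp (chr11:58199556-58207591) overlaps Irgm2 (chr11:58199618-58222782) on the same strand. Reads from the shared stretch could be split by the estimate, so the level of Igtp is uncertain. Irgm2 had means of 7.15 FPKM in control mice and 10.4 FPKM in CKD mice. Irgm1 and Iigp1, of the same family, had log2 fold changes of 0.49 and 0.77, with overlapping groups. The call of Iigp1 was lost in 5 of 8 fits that each left out 1 mouse (021320, 022301, 012811, 012822 or 042301, adjusted p from 0.0834 to 0.126).

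The 4 genes of ADP-ribosylation and ubiquitin rose, and for each the CKD mice all lay above the control mice. Parp14, a mono-ADP-ribosyltransferase, was at 1.77, 2.11, 2.52 and 2.64 FPKM in control mice, 11.5, 13.6, 8.88 and 9.55 in CKD mice and 8.14, 7.68, 8.17 and 7.22 in CKD+Fe mice. The log2 fold change of Parp14, 1.85 (SE 0.15, adjusted p = 4.53e-07), carried the lowest adjusted p of the members. Trim30a, a tripartite-motif protein, changed by 1.63. Parp9 and the ubiquitin ligase Dtx3l, which form a complex, changed by 1.39 and 1.26. These last genes share 682 bases of chromosome 16 on opposite strands (chr16:35938470-35972605 and chr16:35926511-35939151), and whether the FPKM estimate used the strand is not given in the sources used here.

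Of the 9 remaining effectors, 6 rose and for none did control and CKD mice separate. Ifi27l2a, a small protein of intracellular membranes, was at 25.9, 26.99, 57.3 and 23.2 FPKM in control mice, 158, 166, 183 and 42.4 in CKD mice and 85.1, 130, 67.8 and 75.3 in CKD+Fe mice. CKD mouse 120102 stood below the other 3 CKD mice and below control mouse 042301, and the log2 fold change was 1.91 (SE 0.41, adjusted p = 0.00114). Bst2, the membrane tether that retains budding virions, was at 24.9, 24.3, 51.7 and 22.8 FPKM in control mice, 53.4, 74.5, 117 and 31.6 in CKD mice and 67.4, 61.3, 43.99 and 33.1 in CKD+Fe mice. The same pair of mice overlapped, the log2 fold change was 1.07 (SE 0.36, adjusted p = 0.0183), and the call was lost in 2 of 8 fits that each left out 1 mouse (0.98, adjusted p = 0.0503 without 022301 and 0.76, adjusted p = 0.0602 without 110310). Rtp4, Xaf1, Sp100 and Ifi35 had log2 fold changes of 1.48, 1.07, 0.96 and 0.84.

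The other 3 effectors did not pass. Rsad2, which encodes viperin, an enzyme that makes a chain-terminating nucleotide, was at 8.70, 7.61, 10.01 and 11.02 FPKM in control mice, 12.1, 8.99, 9.19 and 5.57 in CKD mice and 7.84, 13.6, 9.64 and 6.96 in CKD+Fe mice. The 3 groups overlapped, and the log2 fold change was -0.084 (SE 0.22, adjusted p = 0.75). Samd9l, a restriction factor, was at 28.4, 32.4, 27.8 and 31.5 FPKM in control mice, 41.3, 34.1, 18.1 and 25.01 in CKD mice and 23.6, 25.03, 35.6 and 28.99 in CKD+Fe mice. CKD mice spread on both sides of the control mice, with a log2 fold change of -0.081 (SE 0.21, adjusted p = 0.743). Ifi44 was at 5.87, 5.60, 12.3 and 6.56 FPKM in control mice, 10.2, 10.2, 8.35 and 4.34 in CKD mice and 4.85, 9.27, 6.52 and 4.84 in CKD+Fe mice. Control mouse 042301 held the highest value of all 12 mice, and the log2 fold change was 0.11 (SE 0.28, adjusted p = 0.732).

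**Figure D2:**
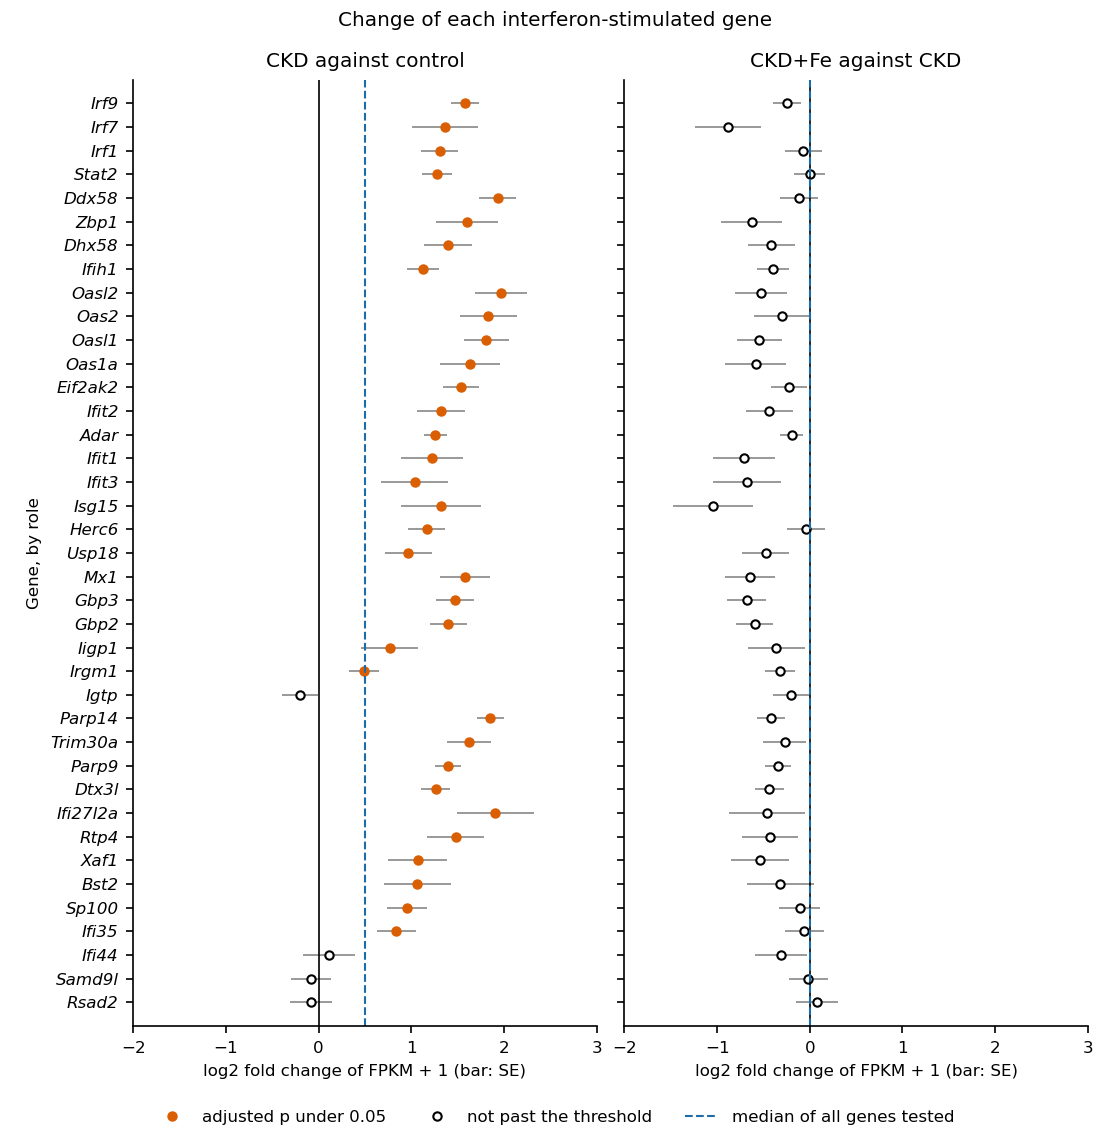
Log2 fold change of FPKM + 1 (horizontal axis, bars show SE) for each member (vertical axis, by role) in CKD against control mice (left) and CKD+Fe against CKD mice (right), with the median of all genes tested as a dashed line. On the left 35 of 39 points pass the threshold, and on the right 38 of 39 points lie below 0 and none passes.

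The second comparison asked whether iron dextran altered the members in CKD kidneys. With limma, 0 of 39 members passed the threshold in either direction, against 0.00761% of all genes that rose (1 gene) and 0.0% that fell. At an unadjusted p under 0.05 there were 10 members, all lower in CKD+Fe mice, against 2.73% of all genes. The log2 fold change was below 0 for 38 of 39 members and for 50.1% of all genes, and the medians were -0.40 and -0.0005. The exception was Rsad2 at 0.079. Members are read in the same 8 mice and move together between mice, so that their number is not a number of independent observations. The CKD mice are also those of the first comparison, so a high CKD value would raise one difference and lower the other. The lowest adjusted p of a member was 0.479, for Gbp3. Leaving out each mouse in turn gave 32 to 39 members below 0, and 38 were below 0 without mice 042301, 110310 and 042702.

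Isg15 had the lowest log2 fold change, -1.05 (SE 0.43, adjusted p = 0.786). It was 13.8 ± 8.94 FPKM (SD, n = 4) in CKD+Fe mice and 27.7 ± 11.1 FPKM (SD, n = 4) in CKD mice. CKD+Fe mouse 062910 lay within the CKD range, and the other 3 CKD+Fe mice were close to or below the lowest CKD mouse. Irf7 followed at -0.88 (SE 0.36, adjusted p = 0.779) and Ifit1 at -0.71 (SE 0.34, adjusted p = 0.835), and for both, 062910 was again the highest CKD+Fe mouse. Ifit3, Usp18 and Oas2 had log2 fold changes of -0.68, -0.47 and -0.30. None of these differences passed the adjusted threshold, and the CKD and CKD+Fe values of each of these genes overlapped.

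**Figure D3:**
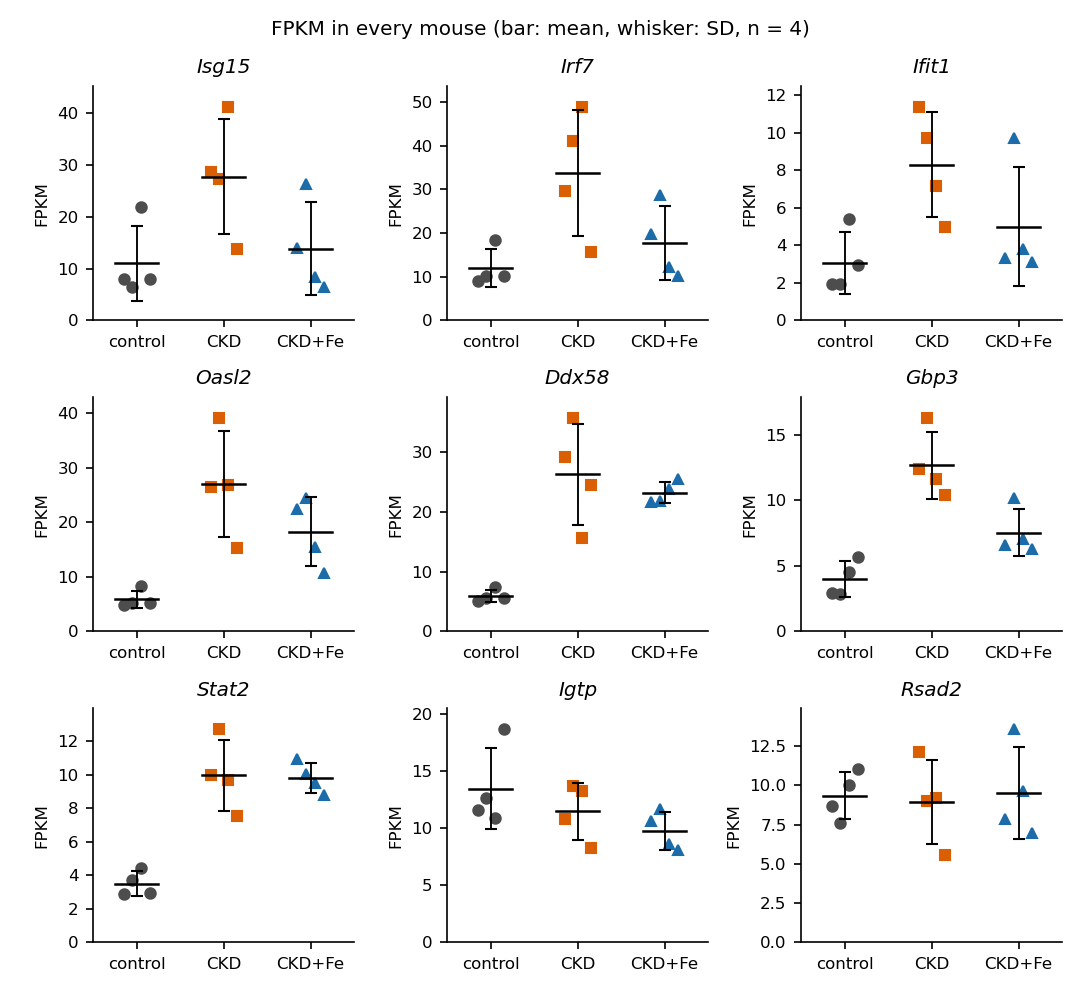
FPKM (vertical axis, from 0) of 9 members in each of the 12 mice, by group, with a bar at the mean and whiskers of 1 SD (n = 4). Isg15, Irf7 and Ifit1 overlap between all groups, Ddx58 and Stat2 overlap between CKD+Fe and CKD mice, Gbp3 is lower in every CKD+Fe mouse than in any CKD mouse, and Igtp and Rsad2 overlap in all 3 groups.

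Every CKD+Fe mouse lay below every CKD mouse for 4 of 39 members, against 1.09% of all genes. They were Gbp2, Gbp3, Parp14 and Dtx3l, named here after their values were seen. Gbp3 was at 2.95, 2.86, 4.54 and 5.65 FPKM in control mice, 12.4, 16.2, 11.6 and 10.4 in CKD mice and 6.62, 10.2, 7.03 and 6.31 in CKD+Fe mice. The highest CKD+Fe mouse was 062910 and the lowest CKD mouse was 120102, close to each other, and the log2 fold change was -0.68 (SE 0.21, adjusted p = 0.479). The exact two-sided permutation p of each of the 4 genes was 0.0286, the smallest that 4 mice against 4 allow. Full separation gives this p by construction, so it adds nothing to the choice of these genes. None of them passed the adjusted threshold. The log2 fold change was -0.60 (SE 0.20, adjusted p = 0.595) for Gbp2, -0.42 (SE 0.15, adjusted p = 0.653) for Parp14 and -0.44 (SE 0.16, adjusted p = 0.654) for Dtx3l.

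Other members had values near 0. Stat2 had a log2 fold change of -0.0028 (SE 0.16), Samd9l of -0.017, Herc6 of -0.037, Ifi35 of -0.059, Irf1 of -0.068 and Ddx58 of -0.12. By role, the median was -0.16 for the signalling factors, -0.41 for the sensors, -0.53 for the RNA-binding effectors, -0.47 for Isg15 conjugation, -0.36 for the GTPases, -0.38 for ADP-ribosylation and ubiquitin and -0.31 for the other effectors. Each of these medians summarises 3 to 9 genes, and differences between the roles were not tested.

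**Figure D4:**
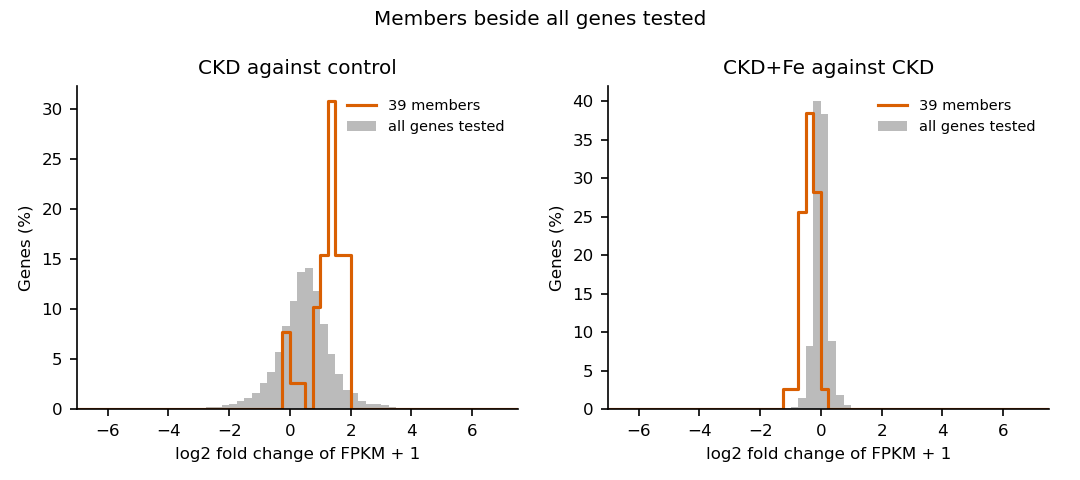
Share of genes (vertical axis, %) by log2 fold change of FPKM + 1 (horizontal axis, bins of 0.25) for all 13148 genes tested (grey) and the 39 members (line). In CKD against control mice most members lie right of the all-gene median of 0.50, and in CKD+Fe against CKD mice most lie left of an all-gene distribution centred near 0.

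The third comparison set iron-treated CKD kidneys against control kidneys. In CKD+Fe mice 26 of 39 members were higher than in control mice and 0 lower, against 54.4% and 11.0% of all genes, and every CKD+Fe mouse exceeded every control mouse for 22 members, against 50.4% of all genes. The median log2 fold change was 0.89. After median-of-ratios rescaling 15 members were higher and 2 lower, against 27.7% and 27.5% of all genes. With quantile normalization 10 of 39 were higher and 2 lower, against 19.8% and 22.6% of all genes, so that the share of members that were higher was near that of all genes. Ddx58 led at 1.82 (SE 0.20, adjusted p = 9.06e-06), followed by Oas2 at 1.54 (SE 0.30, adjusted p = 6.80e-04). Parp14 at 1.44, Stat2 at 1.27 and Adar at 1.06 also stayed higher than in control mice. Isg15 at 0.27 (SE 0.43, adjusted p = 0.593), Irf7 at 0.48 (SE 0.36, adjusted p = 0.25), Ifit1 at 0.52 (SE 0.34, adjusted p = 0.186), Ifit3 at 0.36 (SE 0.36, adjusted p = 0.396) and Usp18 at 0.49 (SE 0.25, adjusted p = 0.1) did not pass, although they had passed in untreated CKD mice. Without control mouse 042301, Ifit3 (0.76, adjusted p = 0.0249) and Usp18 (0.67, adjusted p = 0.0329) passed. The difference between the CKD groups is the test of that contrast, and none of these 5 genes passed it (adjusted p from 0.779 to 0.878). The control mice are shared with the first comparison and the CKD+Fe mice with the second.

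The members varied more between mice of a group than the typical gene did. The comparison here was with 13038 genes, fewer than the 13148 tested. In CKD mice the highest mouse was a median of 2.18 times the lowest over the 39 members and 1.61 times over these genes. Of the members, 24 exceeded a 2-fold range, against 25.8% of these genes. In control mice the medians were 1.78 and 1.54, and in CKD+Fe mice 1.71 and 1.43. Ifi27l2a spread most in the CKD group (4.31-fold), Ifit3 in the control group (3.90-fold) and Isg15 in the CKD+Fe group (4.05-fold). The deviations followed single mice. Control mouse 042301 held the highest control value of 23 members, CKD mouse 120102 the lowest CKD value of 27 and 022301 the highest of 24, and CKD+Fe mouse 062910 the highest of 26 and 122320 the lowest of 29. The mean log2(FPKM + 1) over the members was 2.49, 2.53, 3.04 and 2.77 in control mice, 4.08, 4.27, 3.92 and 3.45 in CKD mice, and 3.57, 3.87, 3.49 and 3.27 in CKD+Fe mice. On the deposited scale all CKD and CKD+Fe mice were above all control mice on this mean, and the ranges of the CKD and CKD+Fe groups overlapped. The all-gene median of the log2 fold change was 0.50 in both CKD groups against control mice. CKD+Fe mouse 122320 (3.27) and control mouse 042301 (3.04) were closer to each other than that shift. The mean was not computed after rescaling, so this separation is not read as particular to the members.

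**Figure D5:**
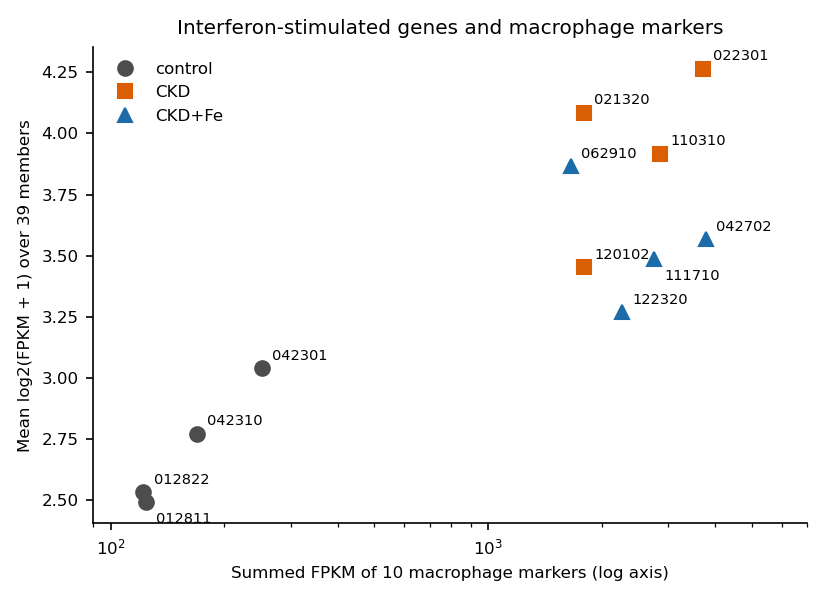
Mean log2(FPKM + 1) over the 39 members (vertical axis) against the summed FPKM of 10 macrophage markers (horizontal log axis), 1 point per mouse, labelled with its number. The control mice lie low on both axes, and among the 8 CKD and CKD+Fe mice the order by this sum is not the order by the members.

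Leukocyte markers moved with the first comparison. Of 10 macrophage markers 10 rose in CKD mice, also after median-of-ratios rescaling, with a median log2 fold change of 3.45, and their summed FPKM was 124, 122, 252 and 169 in control mice, 1795, 3710, 2848 and 1792 in CKD mice, and 3770, 1659, 2747 and 2265 in CKD+Fe mice. Control mouse 042301, with the highest members, also had the highest macrophage sum of its group, the highest endothelial sum (178 FPKM against 90.1 to 101) and 964 FPKM of the collecting duct gene Aqp2 against 153 to 285 in the other control mice. Among CKD mice, 120102 had nearly the macrophage sum of 021320 (1792 and 1795) and a lower mean of the members (3.45 and 4.08). Lyz2 was the largest single value in both sums (952 and 970 FPKM). Single markers went both ways between 120102 and 021320, with Adgre1 at 18.2 and 28.7 FPKM and Cd68 at 74.9 and 49.1 FPKM. The pan-leukocyte gene Ptprc was at 14.1 and 19.9 FPKM, so a similar sum is not an equal leukocyte content. CKD+Fe mouse 062910 had the lowest macrophage sum of its group and the highest members. Of 6 T cell markers 5 rose in CKD mice on the deposited scale, where 54.6% of all genes rose, and 2 after median-of-ratios rescaling, where 28.8% did, with medians of 0.90 and 0.55. Their deposited levels gave sums of 6.59 to 29.3 FPKM, lowest in 120102, against 3.44 to 9.02 in control mice. Neutrophil and fibroblast markers rose in CKD mice as well (4 of 4 and 4 of 4), as did 3 of 4 dendritic cell markers and the 1 tested B cell marker, and these counts were the same after median-of-ratios rescaling, whereas the 1 tested natural killer cell marker had a log2 fold change of 0.59 (adjusted p = 0.147). In CKD+Fe against CKD mice none of the macrophage or T cell markers passed, with median log2 fold changes of -0.04 and 0.27. None of the macrophage or T cell markers was at 0 in any mouse, and the part of leukocyte content in the members' change was not tested.

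The ligands of the pathway were hardly detected. Of 20 interferon genes in the table, 17 were listed at 0 in every mouse and none reached 1 FPKM in any mouse. The highest value was 0.212 FPKM of Ifng in CKD+Fe mouse 111710. Ifng was listed at 0 in control mouse 012811, CKD mice 021320 and 022301 and CKD+Fe mouse 062910. Read depth is not known here, and no limit can be set on what such a level means in reads.

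The 6 receptor genes all rose in CKD mice, where 54.6% of all genes tested rose. Ifnar1, a chain of the type I interferon receptor, was at 9.78, 8.98, 10.4 and 10.5 FPKM in control mice, 26.8, 30.98, 25.4 and 29.1 in CKD mice and 28.5, 20.6, 23.8 and 23.6 in CKD+Fe mice. All CKD values exceeded the control values, with a log2 fold change of 1.41 (SE 0.12, adjusted p = 9.49e-07). Ifngr1, the ligand-binding chain for interferon gamma, was at 20.5, 20.3, 25.97 and 23.2 FPKM in control mice, 72.8, 123, 94.4 and 83.00 in CKD mice and 94.6, 74.2, 75.1 and 85.2 in CKD+Fe mice. It rose most among the receptors, by 1.99 (SE 0.16, adjusted p = 4.61e-07). Ifngr2 changed by 1.75, Ifnlr1 of the interferon lambda receptor by 1.13, Ifnar2 by 0.72 and Il10rb by 0.71. None of the 6 passed in CKD+Fe against CKD mice, with values between -0.32 and 0.052. After median-of-ratios rescaling Ifnar2 and Il10rb no longer passed in CKD against control mice, at 0.16 (adjusted p = 0.472) and 0.15 (adjusted p = 0.447).

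Below the receptors, the kinases Jak1 and Tyk2 rose by 0.92 and 1.06. The whole pathway list held the interferon genes above, receptors, kinases, factors, sensing genes and negative regulators. Of its 51 listed genes 29 were tested, none of them an interferon gene. In CKD mice 25 rose and 0 fell, against 54.6% and 13.3% of all genes, with a median of 0.97. After median-of-ratios rescaling 15 rose and 1, Ticam1, fell, against 28.8% and 29.3%. The largest rises were those of Socs3, an inhibitor of Jak kinases (3.78 (SE 0.22, adjusted p = 4.45e-08)), Tmem173, which encodes the DNA-sensing adaptor STING (3.09 (SE 0.15, adjusted p = 2.29e-08)), and Ikbke, a kinase that activates Irf3 (2.45 (SE 0.23, adjusted p = 1.42e-06)). The lowest values were those of Ticam1 (0.011), Trim25 (0.27, adjusted p = 0.0488) and Irf3 (0.40). For CKD+Fe against CKD mice limma called 0 of the 29, 2 had an unadjusted p under 0.05, both of them lower (Socs3 and Tlr9), and 20 of 29 were below 0.

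A further list of 51 interferon-inducible genes outside the 41 members gave 48 tested genes. In CKD mice 40 rose and 0 fell, against 54.6% and 13.3% of all genes, with a median log2 fold change of 1.13. After median-of-ratios rescaling 32 rose and 1 fell, against 28.8% and 29.3%, and the median was 0.74. The largest rises were those of Apobec3, a cytidine deaminase that restricts retroviruses (2.31 (SE 0.23, adjusted p = 2.39e-06)), Ifi204, a DNA-binding protein of the HIN family (2.30 (SE 0.23, adjusted p = 2.94e-06)), and Slfn2, a regulator of T cell quiescence (2.20 (SE 0.21, adjusted p = 1.55e-06)). Cmpk2, a mitochondrial nucleotide kinase, was at 6.50, 4.12, 7.24 and 6.30 FPKM in control mice, 7.51, 6.73, 4.55 and 4.39 in CKD mice and 3.72, 5.32, 4.37 and 3.68 in CKD+Fe mice. Its groups overlapped, as did those of Rsad2, and its log2 fold change was -0.058 (SE 0.19, adjusted p = 0.801). Tdrd7 (0.011) and the guanylate-binding protein gene Gbp6 (0.015) also did not pass. Of the 48, limma called 0 in CKD+Fe against CKD mice, 4 had an unadjusted p under 0.05 (Ifi204, Isg20, Gbp5 and Slfn1, all lower), 45 were below 0, and the median was -0.18.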

How the data were processed

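Whole kidney RNA of 12 mice was sequenced, with 1 library per mouse and 4 mice per group. Per the paper's methods, stranded mRNA libraries were read with 50 single-end cycles on a HiSeq4000. The submitters' processing notes name bcl2fastq 2.19, STAR 2.5.2, Cufflinks 2.1.1 and GRCm38; the annotation release is not given in the sources used here. The authors deposited FPKM for protein-coding genes. Of 22053 rows, 30 values in 17 genes had a failed status and were treated as missing. FPKM are relative to the total of each mouse, so a change of total RNA cannot be seen. Low values gave no clear step of 1 read for 9 of the 11 mice set against the first, so the depth is unknown and no counting interval is given. Nothing says that the mice came from separate cages or litters, and p values measure the spread between these mice.

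Values were tested as log2(FPKM + 1), which understates changes of low genes, by linear models in R 4.3.3 with the package limma 3.58.1 (lmFit, contrasts.fit, then eBayes allowing a trend of variance). The fit held the 3 groups together and covered 13148 genes, those that reached 1 FPKM in 4 or more mice. Two-sided p values were adjusted (Benjamini-Hochberg) across every gene in the fit and called below 0.05. The study's methods name a count test, which FPKM do not allow. For single genes an exact two-sided permutation test went through the 70 possible ways of dividing 8 mice. The fit was tested on simulated data. The labels name no batch, and the groups share no replicate numbers.

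The members and the lists of pathway genes, other interferon-inducible genes and markers (macrophage, T cell, B cell, natural killer cell, dendritic cell, neutrophil, endothelial, fibroblast and proximal tubule) were chosen with earlier results of these data known. Values in every mouse are given for 18 members picked by role, for the 4 highest and 4 lowest log2 fold changes in CKD against control mice, and for the 3 highest and 3 lowest in CKD+Fe against CKD mice; from the other lists, the receptors, Jak1, Tyk2, Cmpk2 and the 3 highest and 3 lowest are named. Gbp3 and Dtx3l were added after their values were seen. Deposited positions overlapped the same gene in GENCODE M21 (GRCm38) for 99.9% of 21810 matched rows. Alternatives were a pseudocount of 0.1, no filter, rescaling by the median of ratios, quantile normalization, a fit of the 2 groups alone, array weights, an adjusted p under 0.5, each mouse left out, and 3 mice left out together. Mx2, Irf8 and Oas1b were not analysed here, and 1 pathway gene that enters the counts is not reported here by name.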

Additional observations from a re-analysis of the deposited data

Results flagged for a closer look

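In 13 of 117 sets of 4 mice, 1 mouse lay far from the other 3 of its group for a member, where chance flags about 1 in 20 such sets (5.85 of 117). The members share mice, so these sets are not independent. Control mouse 042301 was far above the other control mice for Irf7 (18.4 FPKM), Oasl2 (8.25), Isg15 (21.8), Bst2 (51.7), Ifi44 (12.3) and Ifi27l2a (57.3). Control mouse 042310 was far above for Ifih1 (3.92 FPKM), Iigp1 (11.1) and Parp9 (6.93). CKD mouse 120102 was far below the other CKD mice for Ifit3 (18.3 FPKM). CKD+Fe mouse 062910 was far above for Ifit1 (9.71 FPKM) and Oasl1 (7.08), and 122320 was far below for Sp100 (13.6 FPKM).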

How the results depend on the processing

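Of the members' results, the counts in CKD+Fe against CKD mice kept 0 calls under all alternatives at the 0.05 threshold, and the log2 fold change was below 0 for 37 to 39 members under the other scalings, filters and weights. With 0 calls in the comparison, an adjusted p under 0.5 gave 1 lower member. Rescaling moved the counts against control. In CKD against control mice, 20 members rose with quantile normalization, and 3 fell with median-of-ratios rescaling, 2 with quantile normalization and 1 at an adjusted p under 0.5. In CKD+Fe against control mice, 15 rose with median-of-ratios rescaling and 10 with quantile normalization, and the count that fell was 2, 2, 1, 1 and 1 with median-of-ratios rescaling, quantile normalization, array weights, an adjusted p under 0.5, and without mice 042301, 110310 and 042702 together. Leaving out each mouse gave 0 to 1 that fell, 1 without control mouse 042301. Pathway genes called in CKD mice came to 16 with median-of-ratios rescaling, and other interferon-inducible genes to 26 with quantile normalization. These 2 scalings take out the shift of the typical gene by construction. No paired analysis was possible because the groups share no replicate numbers.

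Signs reversed for some members that had not passed and for 1 that had, Irgm1, at -0.070 in CKD against control mice with median-of-ratios rescaling. In that comparison Ifi44 was at -0.40 with median-of-ratios rescaling and -0.55 with quantile normalization, and Samd9l at 0.069 with array weights and 0.090 without the 3 mice together. Leaving out each mouse gave -0.23 to 0.10 for Rsad2 and -0.26 to 0.12 for Samd9l. In CKD+Fe against CKD mice Stat2 was at 0.0057 with median-of-ratios rescaling, 0.00021 with quantile normalization and 0.0017 with array weights, and leaving out each mouse gave -0.12 to 0.11 for Stat2, -0.33 to 0.045 for Ddx58, -0.20 to 0.099 for Herc6, -0.21 to 0.053 for Ifi35, -0.18 to 0.085 for Irf1, -0.11 to 0.23 for Rsad2, -0.22 to 0.16 for Samd9l and -0.31 to 0.0030 for Sp100. In CKD+Fe against control mice, median-of-ratios rescaling and quantile normalization gave -0.24 and -0.30 for Isg15, -0.049 and -0.032 for Irf7 and -0.17 and -0.088 for Ifit3, quantile normalization gave -0.27 for Ifit1 and -0.31 for Usp18, and leaving out each mouse gave -0.085 to 0.63 for Isg15. The cause of these reversals was not tested.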
